A study of Saccharomyces cerevisiae with 10 samples.

Results

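Branched-chain amino acid synthesis was followed through 10 listed genes: LEU1 (YGL009C), LEU2 (YCL018W), LEU3 (YLR451W), LEU4 (YNL104C), LEU9 (YOR108W), BAT1 (YHR208W), BAT2 (YJR148W), ILV2 (YMR108W), ILV3 (YJR016C), and ILV5 (YLR355C). Members were the merged ATAC-seq peaks whose nearest promoter in the deposited annotation belonged to one of them. Of the 10 genes, 5 had such a peak (LEU2, LEU1, LEU9, LEU3, and ILV5, 1 peak each), which makes 5 members among 3515 peaks. LEU4, BAT1, BAT2, ILV2, and ILV3 had no assigned peak and dropped out of the member set. The starts of these 5 genes lie inside peaks that were assigned to a neighbouring gene, and those peaks are given separately below as covering peaks. The set was chosen by the counts of the LEU2 peak, which were already known to be higher after Day 0, so each contrast with Day 0 is given as a description without a test.

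In ATAC-seq, Tn5 transposase inserts adapters where DNA is accessible, and the paper reads a higher count as less compact chromatin. Neither DNA copy number nor read mapping was measured apart from the counts. The libraries come from budding yeast populations of an evolution experiment in which cells with the lowest YFP were sorted during the first 7 days and no selection followed. There were 2 libraries for each of Day 0, Day 3, Day 7, Day 10, and Day 28, or 10 in all. All groups carry the labelled genotype W303 MATalpha HO::HIS3::pGAL1-YFP, in which the GAL1 promoter drives YFP. All were grown in synthetic complete medium with 0.1% mannose and then with 0.1% mannose and 0.2% galactose, and the labels separate the groups by day alone. The paper's methods add mutant alleles of LEU2, TRP1, CAN1, URA3, ADE2, and HIS3 that the strain carries on every day. In the reporter they name HIS5 where the labels name HIS3. They also name 1 evolution replicate, L3, as the population revived from frozen stocks, and the sources used here do not say whether the libraries of a day came from separate cultures. The p-values therefore measure the spread between these libraries, which may be technical, and not that between independently evolved populations. Libraries held 4748625 to 18693542 counts in peaks, with Day 28 replicate 1 the shallowest, and the lowest count of any member in any library was 807. The Day 3 and Day 28 libraries and Day 10 replicate 2 were sequenced in 2 runs. No such note is given for the others. Day 0 vs Day 7 and Day 3 vs Day 28 thus compare libraries with the same note. In the other contrasts repeat sequencing and day cannot be told apart, except within Day 10.

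The synthesis routes of leucine, isoleucine, and valine share enzymes that work in yeast mitochondria. Acetolactate synthase (ILV2), acetohydroxyacid reductoisomerase (ILV5), and dihydroxyacid dehydratase (ILV3) build the keto acids of valine and isoleucine, and the leucine branch leaves from the valine keto acid through the alpha-isopropylmalate synthases LEU4 and LEU9, the isomerase LEU1, and the dehydrogenase LEU2. BAT1 and BAT2, the mitochondrial and cytosolic transaminases, add the amino group at the end. Leu3 is the zinc cluster transcription factor of the pathway and responds to the intermediate alpha-isopropylmalate, while Gcn4 is the general activator of amino acid synthesis genes under starvation.

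The sequences are shown because the pathway is known for these binding motifs, and because they show that the gene with the highest rise and a gene that was lower share one. The Leu3 motif was searched as CCGGNNCCGG, which reads the same on both strands, and the Gcn4 motif as TGACTC on both strands. The motifs share no overlap. All 10 listed genes were found in the RefSeq annotation of R64, and the window ran from 250 bases before to 50 bases after the first base of each gene. For the coding genes here that base is the A of the start codon. The Leu3 motif was in 8 of 6001 such windows (0.133%), among them those of LEU1, LEU2, and BAT1. The Gcn4 motif was in 479 of 6001 (7.98%), among them those of LEU3, LEU4, BAT1, ILV3, and ILV5. The reference is not the W303 strain that was sequenced. Capitals mark the motif, and each window reads in the direction of its gene.
LEU2 promoter, chrIII:91074-91373, plus strand: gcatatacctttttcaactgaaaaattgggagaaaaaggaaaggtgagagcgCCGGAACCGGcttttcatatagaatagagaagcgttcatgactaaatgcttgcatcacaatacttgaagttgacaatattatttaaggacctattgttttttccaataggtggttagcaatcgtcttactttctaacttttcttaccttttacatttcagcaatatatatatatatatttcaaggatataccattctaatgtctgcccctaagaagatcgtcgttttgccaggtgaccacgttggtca
LEU1 promoter, chrVII:478603-478902, minus strand: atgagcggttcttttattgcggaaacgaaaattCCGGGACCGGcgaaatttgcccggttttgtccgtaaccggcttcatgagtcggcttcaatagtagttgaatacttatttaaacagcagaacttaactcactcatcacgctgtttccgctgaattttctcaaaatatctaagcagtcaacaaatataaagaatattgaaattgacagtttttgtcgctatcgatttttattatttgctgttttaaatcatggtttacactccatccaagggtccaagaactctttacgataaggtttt
LEU3 promoter, chrXII:1035843-1036142, plus strand: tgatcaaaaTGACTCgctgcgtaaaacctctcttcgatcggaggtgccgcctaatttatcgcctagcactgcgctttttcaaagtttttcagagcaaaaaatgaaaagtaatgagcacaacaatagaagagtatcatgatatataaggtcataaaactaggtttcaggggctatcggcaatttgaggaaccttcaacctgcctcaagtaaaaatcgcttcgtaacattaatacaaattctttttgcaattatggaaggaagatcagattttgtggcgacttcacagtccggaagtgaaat
ILV5 promoter, chrXII:839204-839503, minus strand: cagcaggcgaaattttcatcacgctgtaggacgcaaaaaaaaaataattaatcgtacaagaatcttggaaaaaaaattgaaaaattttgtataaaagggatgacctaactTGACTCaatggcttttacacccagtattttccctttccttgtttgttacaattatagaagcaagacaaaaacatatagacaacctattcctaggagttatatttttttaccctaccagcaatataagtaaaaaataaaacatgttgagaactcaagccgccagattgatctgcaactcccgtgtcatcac

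The Leu3 motif also lies inside the ILV5 peak and inside the peak that covers the start of ILV2, farther from the gene than the window reaches. Its centre is 194 bases before the LEU2 start, 213 before LEU1, 143 before BAT1, 373 before ILV5, and 464 before ILV2. It was found in 27 of all 3515 peaks (0.768%), a share that depends on peak length, since the member and covering peaks run from 684 to 4341 bp against a median of 868 bp for all peaks. The 30 bases around each match are shown so that the central pair of bases can be compared. The match in LEU1 and that in LEU2 differ there from each other and from the remaining sites, which share 1 spelling.
LEU2 site, chrIII:91116-91145, plus strand: ggtgagagcgCCGGAACCGGcttttcatat
LEU1 site, chrVII:478850-478879, minus strand: aacgaaaattCCGGGACCGGcgaaatttgc
BAT1 site, chrVIII:517375-517404, plus strand: attgtgtttgCCGGTACCGGcctttaagct
ILV2 site, chrXIII:483606-483635, plus strand: ccggagcctgCCGGTACCGGcttggcttca
ILV5 site, chrXII:839611-839640, minus strand: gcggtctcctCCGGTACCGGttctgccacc

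LEU2 encodes beta-isopropylmalate dehydrogenase, the third step of the leucine branch. Its peak spans 2315 bp on chromosome III from 90579 to 92893 and was found by the authors' caller on 5 of 5 days. It holds the whole LEU2 gene (91324 to 92418, plus strand), the leucine tRNA gene SUP53 (90859 to 90972), 191 bp of a Ty2 long terminal repeat, and the last 117 bp of NFS1. The deposited annotation places it at the end of the tRNA gene. Counts in it are thus the sum over LEU2, the tRNA gene, and the repeat, and the merged counts cannot tell these apart. Of its windows of 100 bases, 5.42% recur elsewhere in the reference, against 0 of those of the other 4 members.

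On Day 0 the LEU2 peak held 4943 and 5417 normalized counts (counts divided by the deposited size factor of the library). The Day 3 libraries held 20391 and 20979, those of Day 7 18356 and 17646. Day 10 gave 15505 and 14109, and Day 28 gave 14481 and 16836. All 8 later libraries lay above both Day 0 libraries, with no overlap. In order of the day means, Day 3 was highest at 20685 ± 416 (SD, n = 2), then Day 7 at 18001 ± 502, Day 28 at 15658 ± 1666, Day 10 at 14807 ± 987, and Day 0 at 5180 ± 335. Of neighbours in that order, only Day 28 and Day 10 overlapped in their libraries.

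Against Day 0, the log2 fold change of LEU2 was 1.97 (SE 0.20) by Day 3, 1.77 (SE 0.14) by Day 7, 1.54 (SE 0.15) by Day 10, and 1.60 (SE 0.17) by Day 28. These 4 comparisons share the Day 0 libraries. In fold terms the peak was 3.93, 3.42, 2.92, and 3.03 times as high as on Day 0. In each of them LEU2 ranked 1 of 3515 peaks by log2 fold change, and it kept that rank with DESeq2 and with total counts, and with loess except for Day 7, where it ranked 2. The set was chosen for this pattern, so no test is given. The other 4 members had medians of 0.01, -0.08, -0.14, and -0.06 on the same days, close to the medians of all peaks, which were -0.02, -0.03, 0.01, and 0.01. Leaving out any 1 library kept the LEU2 value between 1.48 and 2.05 over the 4 contrasts.

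A ratio within each library needs no scaling between libraries, but it does not remove shifts that depend on peak abundance. The LEU2 count was 0.260 and 0.254 times the summed counts of the other 4 members in the Day 0 libraries. In the 8 later libraries this ratio ran from 0.827 to 1.02. It was lowest in Day 28 replicate 1 and highest in Day 3 replicate 1, and no later library came near Day 0. ILV5, the most abundant of the other 4 members, was itself at -0.40 on Day 10 and -0.30 on Day 28 against Day 0 under TMM.

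**Figure D1:**
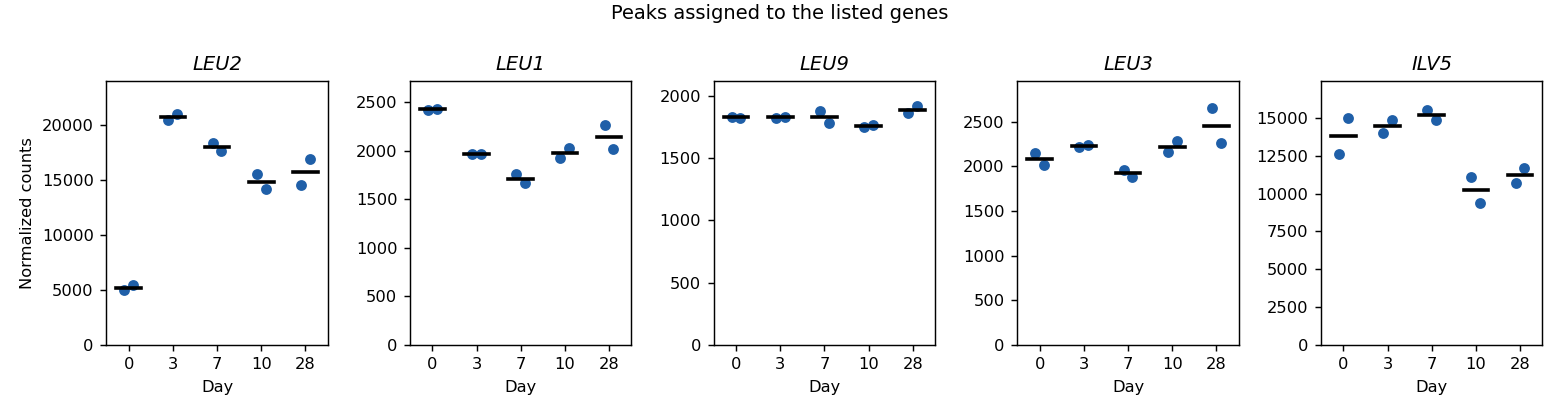
Normalized counts (vertical axes, from 0, separate for each gene) of the peaks assigned to LEU2, LEU1, LEU9, LEU3, and ILV5 by day. Points are single libraries and bars the mean of 2; the LEU2 points rise from 4943 and 5417 on Day 0 to between 14109 and 20979 later, while LEU9 stays between 1756 and 1921.

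LEU1 encodes isopropylmalate isomerase, the step just before LEU2, and its promoter window holds the same motif. Its peak covers the gene start on chromosome VII from 478623 to 479306. It held 2415 and 2430 normalized counts in the Day 0 libraries, 1964 and 1964 in those of Day 3, 1756 and 1662 at Day 7, 1924 and 2026 at Day 10, and 2264 and 2012 at Day 28. All later libraries were below both Day 0 libraries, the reverse of LEU2. Its log2 fold changes against Day 0 were -0.33 (SE 0.08), -0.53 (SE 0.05), -0.26 (SE 0.07), and -0.18 (SE 0.09) from Day 3 to Day 28. Over the 10 libraries the log2 values of LEU1 and LEU2 had a Pearson r of -0.80, a description over libraries that differ mainly by Day 0 against the later days.

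LEU9 encodes the minor of the alpha-isopropylmalate synthases, the enzymes that open the leucine branch. Its peak on chromosome XV from 522285 to 523225 held 1833 and 1827 normalized counts in the Day 0 libraries, 1826 and 1836 in those of Day 3, 1879 and 1786 at Day 7, 1756 and 1768 at Day 10, and 1863 and 1921 at Day 28. The highest day mean was 1.07 times the lowest, the narrowest span of the 5 members. Its log2 fold changes against Day 0 lay between -0.02 and 0.05.

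LEU3, the regulator, has a peak on chromosome XII from 1035142 to 1036143. It held 2144 and 2019 normalized counts in the Day 0 libraries, 2217 and 2239 in those of Day 3, 1958 and 1882 at Day 7, 2159 and 2279 at Day 10, and 2647 and 2264 at Day 28. Day 7 was the lowest day and Day 28 the highest, with the 2 Day 28 libraries far apart. Against Day 0 the log2 fold changes were 0.07, -0.14, 0.12, and 0.24, of which that of Day 3 was -0.12 with total counts.

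ILV5, the reductoisomerase, which also takes part in keeping mitochondrial DNA, lies in the longest member peak, 4341 bp on chromosome XII from 837146 to 841486. That peak merges 11 peaks called on single days and holds the starts of 4 genes, so its counts are not those of the ILV5 promoter alone. It held 12645 and 15013 normalized counts in the Day 0 libraries, 14042 and 14888 in those of Day 3, 15554 and 14893 at Day 7, 11077 and 9411 at Day 10, and 10732 and 11708 at Day 28. The libraries of Day 10 and Day 28 lay below all those of the earlier days. Against Day 0 the log2 fold changes were 0.04, 0.12, -0.40, and -0.30. Those of Day 3 and Day 7 were below 0 with total counts and with loess.

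Counting libraries that do not overlap those of Day 0, 3 of the 5 members were separated at Day 3 and at Day 7, and 5 at Day 10 and at Day 28. The shares over all peaks were 64.6%, 78.6%, 71.4%, and 55.0%. The rule used these contrasts, and nothing is read from the counts.

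Across the genome, 2 of 3515 peaks were at least 1 log2 unit above Day 0 on all 4 later days. They were LEU2, whose lowest value was 1.54, and the FRT1 peak, whose lowest was 1.28. Their number was also 2 with DESeq2, total counts, and loess, and under loess the lowest values were 1.44 for LEU2 and 1.41 for FRT1. The member next below LEU2 was LEU9, whose lowest value was -0.02. FRT1 encodes a tail-anchored protein of the endoplasmic reticulum, and its peak (chromosome XV, 924661 to 925823) covers the starts of FRT1 and of the neighbouring YOR326W. It held 3379 and 3281 normalized counts in the Day 0 libraries, 10460 and 11136 in those of Day 3, 10964 and 10760 at Day 7, 8375 and 7435 at Day 10, and 8805 and 9322 at Day 28. Its log2 fold changes against Day 0 were 1.67, 1.68, 1.28, and 1.45. After it came the ribosomal 5S gene RDN5-1 with a lowest value of 0.28, a gene of a tandem repeat whose copies the counting could split. With total counts (0.34) and loess (0.31) the third place went to the TIM9 peak, which covers the start of URA3.

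By the Pearson correlation of log2 normalized counts with LEU2 over the 10 libraries, the most similar peaks were FRT1 (r = 0.99), RPT4 (r = 0.91), RDN5-1 (r = 0.90), PRO1 (r = 0.87), and AQY2 (r = 0.87). RPT4 encodes a proteasome ATPase, PRO1 the first enzyme of proline synthesis, and AQY2 a water channel. The likeness is one of shape, since these libraries share the step after Day 0. RPT4 was only 0.11 to 0.15 log2 units above Day 0, PRO1 0.13 to 0.18, and AQY2 0.12 to 0.21.

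**Figure D2:**
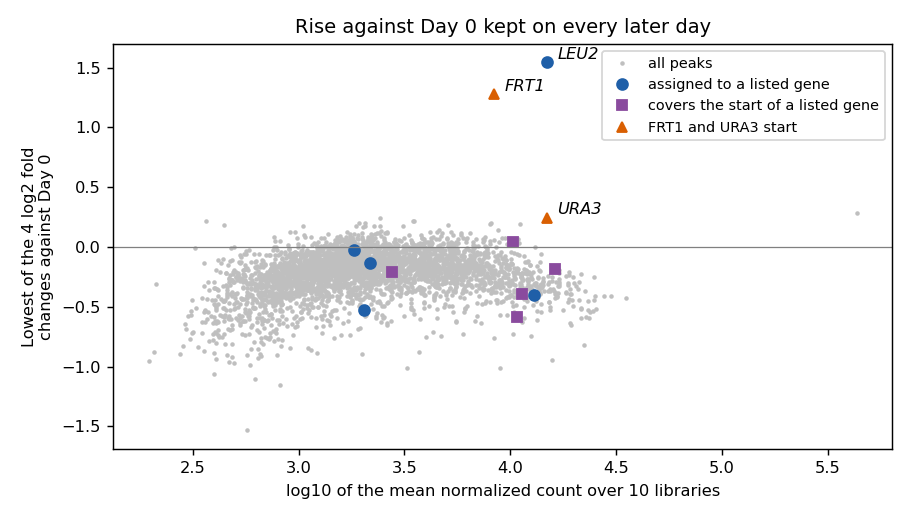
Each point is a peak, placed by the log10 of its mean normalized count over 10 libraries and by the lowest of its 4 log2 fold changes against Day 0. LEU2 at 1.54 and FRT1 at 1.28 lie above all other peaks, the peak over the URA3 start is at 0.24, and the other 4 members lie between -0.53 and -0.02.

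The peaks around LEU2 were compared with it over the same days. Within 20 kb of its edges there were 13 peaks, with log2 fold changes from Day 0 to Day 3 between -0.20 and 0.42 and a median of 0.07. The nearest, at the promoter of NFS1, the cysteine desulfurase of iron-sulfur cluster assembly, starts 1151 bp beyond the LEU2 peak. Its values against Day 0 were 0.17, -0.06, 0.31, and 0.25. The nearest on the other side, assigned to the Ty2 gene YCL020W at 5724 bp, had -0.19, -0.47, 0.39, and 0.09. It was called on Day 10 only, so that its choice favours a high value on that day. It held 180 to 844 raw counts and overlaps the Ty2 element, a repeat whose copies the counting could split. Of the 94 other peaks of chromosome III, the highest value from Day 0 to Day 3 was 0.68. The peaks on either side did not share the size of the LEU2 difference on any later day.

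**Figure D3:**
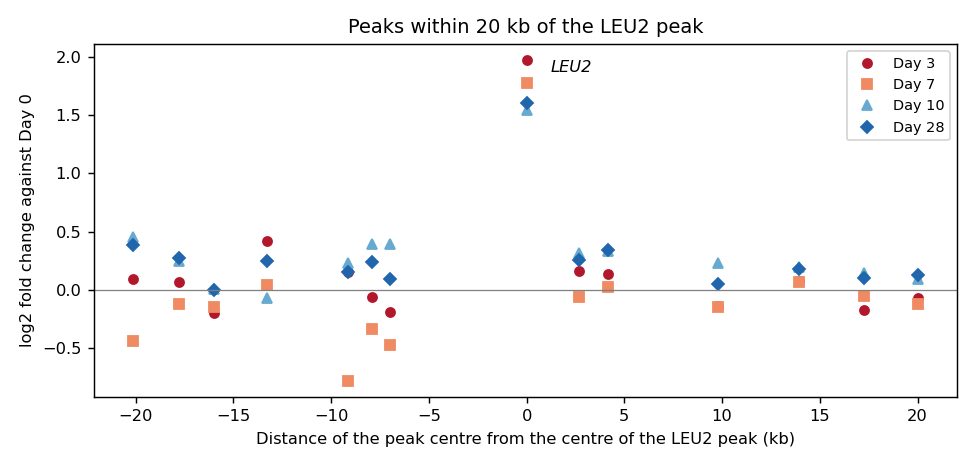
The log2 fold change against Day 0 (vertical axis) of the LEU2 peak and of the 13 peaks within 20 kb of its edges, placed by the distance of their centres from its centre in kb. Colours and shapes mark Day 3, Day 7, Day 10, and Day 28; LEU2 lies at 1.54 to 1.97 and the NFS1 peak next to it at -0.06 to 0.31.

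LEU2 is 1 of 6 loci at which the paper's strain carries a mutant allele, so the peaks at the other 5 are set beside it. The start of URA3, which encodes orotidine phosphate decarboxylase, lies in a peak assigned to TIM9 with values of 0.81, 0.74, 0.24, and 0.40 against Day 0. Over all peaks these fold changes correlated with peak abundance (r = 0.64, 0.73, -0.59, and -0.27, across peaks, which are not replicates), and the URA3 peak is abundant. The lowest of its 4 values was 0.24 under TMM, 0.34 with total counts, and 0.31 with loess. Whether abundance bears on them was not tested. That peak held 9857 and 11494 normalized counts on Day 0 and 17837 and 20304 on Day 3, and it also covers the starts of TIM9 and a noncoding RNA gene. The peaks over the starts of TRP1, HIS3, and CAN1 were closer to Day 0, with 0.06 to 0.14, -0.02 to 0.19, and -0.19 to -0.06 over the 4 days. The ADE2 promoter peak lay between -0.13 and 0.01. A second ADE2 peak, inside the gene and called on Day 28 only, had 0.02, -0.72, 0.75, and 0.74. Its choice favours a high value on that day, and it held only 161 to 508 normalized counts. The peak overlapping HO, where the labels place the reporter, lay between -0.19 and 0.04. Whether these alleles or the reporter bear on the LEU2 counts was not tested.

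Changes among the later days do not use the Day 0 libraries, although the later LEU2 counts were part of the pattern that chose the set. These changes were tested with edgeR's quasi-likelihood test over all 3515 peaks, with Benjamini-Hochberg adjustment and a peak called at an adjusted p under 0.05. From Day 3 to Day 7, while sorting went on, 2 of the 5 members fell and 0 rose. Of all peaks 32.1% were called, 17.4% lower and 14.7% higher. They were LEU1, with a log2 fold change of -0.19 (SE 0.06, edgeR adjusted p = 0.0105), and LEU3, with -0.21 (SE 0.06, edgeR adjusted p = 0.00468). LEU2 differed by -0.19 (SE 0.11, edgeR adjusted p = 0.179), ILV5 by 0.08, and LEU9 by 0.01. The member median was -0.19 against 0.00 over all peaks. Without Day 7 replicate 1 the adjusted p was 0.125 for LEU1 and 0.0970 for LEU3, and without Day 7 replicate 2 it was 0.312 and 0.200. LEU2 was called lower by DESeq2 (DESeq2 adjusted p = 0.0193), which called neither LEU1 nor LEU3, and also with total counts (edgeR adjusted p = 0.0104) and loess (edgeR adjusted p = 0.00168), where all 3 were called.

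From Day 7 to Day 10, across the end of sorting, 2 of the 5 members rose and 1 fell. Of all peaks 70.2% were called, 37.4% higher and 32.8% lower. LEU1 rose by 0.25 (SE 0.06, edgeR adjusted p = 0.00172) and LEU3 by 0.25 (SE 0.06, edgeR adjusted p = 0.0015), each back to about its Day 3 level. ILV5 fell by 0.53 (SE 0.12, edgeR adjusted p = 0.00137). LEU2 differed by -0.24 (SE 0.13, edgeR adjusted p = 0.112) and LEU9 by -0.02 (SE 0.06, edgeR adjusted p = 0.801). Over all peaks the log2 fold change correlated with peak abundance (r = -0.75, across peaks, which are not replicates), and LEU2 and ILV5 are abundant peaks. With a loess correction for abundance, LEU2 was higher on Day 10 by 0.62 (edgeR adjusted p = 4.1e-05) and ILV5 by 0.20 (edgeR adjusted p = 0.00461), the opposite direction in both, while LEU1 and LEU3 kept their direction. DESeq2 called LEU2 lower on Day 10, at -0.28 (DESeq2 adjusted p = 0.00475), the reverse of loess, and did not call LEU1 (DESeq2 adjusted p = 0.0528). With 1 library left out, LEU2 under TMM lay between -0.31 and -0.18. Without Day 7 replicate 2, ILV5 was the 1 member called, with adjusted p = 0.0838 for LEU1 and 0.0648 for LEU3, and without Day 7 replicate 1 the adjusted p of ILV5 was 0.0686.

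**Figure D4:**
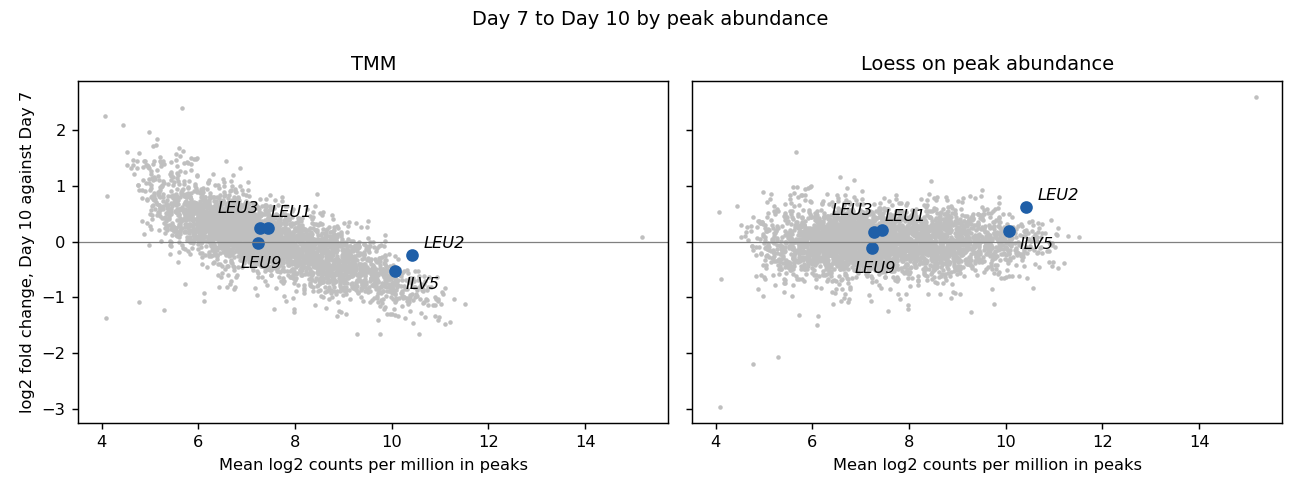
Log2 fold change from Day 7 to Day 10 (vertical axis) of all 3515 peaks against their mean abundance (log2 CPM in peaks), under TMM scaling (left) and after loess on abundance (right), with the 5 members named. The downward slope of the left panel (r = -0.75) is gone on the right, where LEU2 moves from -0.24 to 0.62 and ILV5 from -0.53 to 0.20.

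From Day 10 to Day 28, without selection, 0 of the 5 members and 0.0% of all peaks were called by edgeR, with 195 of 3515 at an unadjusted p under 0.05. DESeq2 called 6 peaks and no member. The member values lay between 0.06 for LEU2 and 0.11 for LEU3, and LEU2 had SE 0.16 and edgeR adjusted p = 0.957.

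Day 3 and Day 28, the first and last of the later days, were also compared. edgeR called 0 of the 5 members, where 31.9% of all peaks were called. LEU2 was at -0.37 (SE 0.18, edgeR adjusted p = 0.0918) and ILV5 at -0.34 (SE 0.16, edgeR adjusted p = 0.0806), and LEU1, LEU3, and LEU9 were at 0.15, 0.16, and 0.08. No member's libraries overlapped between these days, as was the case for 71.7% of all peaks. DESeq2 called LEU2 (DESeq2 adjusted p = 0.00454) and ILV5 (DESeq2 adjusted p = 0.00737) as lower on Day 28, whereas loess put them at 0.19 and 0.12, above Day 3. Without Day 28 replicate 2, LEU1 (edgeR adjusted p = 0.043) and LEU3 (edgeR adjusted p = 0.0124) were called higher.

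An F test over Day 3, Day 7, Day 10, and Day 28 asked whether a peak differed among these 4 days in any way. It called 4 of the 5 members, where 69.3% of all peaks were called: ILV5 (edgeR adjusted p = 0.00156), LEU3 (0.00419), LEU1 (0.00548), and LEU2 (0.0199). LEU9 was not called (edgeR adjusted p = 0.552), but was with total-count scaling (edgeR adjusted p = 0.00202). The LEU2 call was lost with total-count scaling (edgeR adjusted p = 0.158) and without Day 3 replicate 1 (0.0694), Day 3 replicate 2 (0.103), Day 7 replicate 1 (0.0721), Day 7 replicate 2 (0.0567), or Day 10 replicate 2 (0.0639). The LEU1 call was lost without Day 7 replicate 2 (0.0888), and that of ILV5 with total-count scaling (0.0694).

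The 5 listed genes without an assigned peak were followed through the peaks that cover their starts, a set chosen after the files were seen. These peaks hold 2 to 5 gene starts each, and their counts belong to the neighbours as much as to the listed gene. The peak over ILV2, the catalytic subunit of acetolactate synthase, was assigned to SPG4. It held 8777 and 11900 normalized counts in the Day 0 libraries, 12039 and 13546 in those of Day 3, 17929 and 16208 at Day 7, 7806 and 5687 at Day 10, and 6211 and 8037 at Day 28. It was highest on Day 7, rose from Day 3 by 0.42 (SE 0.10, edgeR adjusted p = 0.000614) and fell to Day 10 by 1.30 (SE 0.14, edgeR adjusted p = 4.3e-06). With its highest day mean 2.53 times the lowest, it moved more than any listed gene's peak but LEU2, whose span was 3.99.

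The peak over LEU4, the major alpha-isopropylmalate synthase, fell from Day 7 to Day 10 by 0.66 (SE 0.12, edgeR adjusted p = 0.000144), and that over BAT2 by 0.56 (SE 0.13, edgeR adjusted p = 0.0015). The LEU4 peak ran from 13344 and 14514 normalized counts on Day 7 to 9065 and 8058 on Day 10, with no overlap. BAT2 went from 19506 and 17787 to 12948 and 11689, also with no overlap. Both are abundant peaks, and under loess LEU4 was at 0.01 (edgeR adjusted p = 0.917) and BAT2 was higher on Day 10 by 0.27 (edgeR adjusted p = 0.00115), while ILV2 was still lower, at -0.65. BAT1, with the Leu3 motif in its promoter window, lay between 2522 and 3002 in all libraries, and ILV3 between 9798 and 11408. From Day 3 to Day 28 the peaks over ILV2 (fell by 0.81, edgeR adjusted p = 7.7e-07) and LEU4 (fell by 0.40, edgeR adjusted p = 0.0276) were lower, and under loess LEU4 was at 0.02. Of these covering peaks 1, 3, 0, and 2 were called from Day 3 to 7, 7 to 10, 10 to 28, and 3 to 28, where 32.1%, 70.2%, 0.0%, and 31.9% of all peaks were called. Without Day 7 replicate 1 none was called from Day 3 to 7, and leaving out either Day 3 library or Day 28 replicate 1 left 1 from Day 3 to 28.

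**Figure D5:**
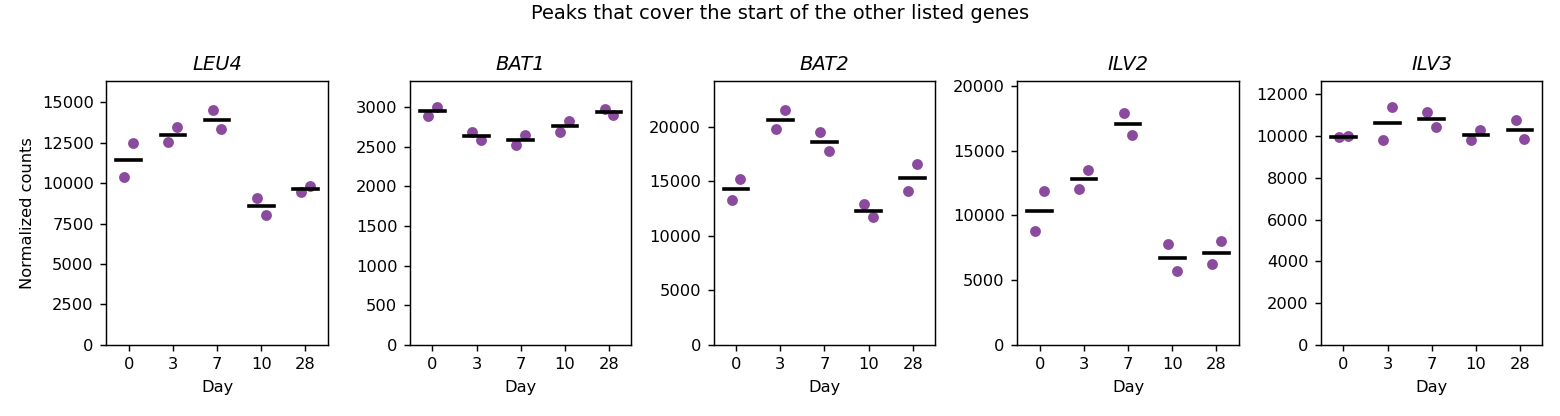
Normalized counts (vertical axes, from 0, separate for each gene) by day of the peaks that cover the starts of LEU4, BAT1, BAT2, ILV2, and ILV3, which were assigned to other genes. Points are single libraries and bars the mean of 2; the ILV2 peak goes from 17929 and 16208 on Day 7 to 7806 and 5687 on Day 10, and ILV3 stays between 9798 and 11408.

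None of the covering peaks was set apart from Day 0 as LEU2 was. Their log2 fold changes lay between -0.59 and 0.70, both at ILV2, on Day 10 and Day 7. These values are under TMM, where those of all peaks correlated with abundance (r = -0.59 for Day 10 and 0.73 for Day 7). Among the peaks whose genes share the Leu3 motif, LEU2 was higher than Day 0 on every later day, LEU1 lower, BAT1 between -0.21 and 0.00, and ILV2 above Day 0 on Day 7 and below it on Day 10. ILV5 was below Day 0 on Day 10 under every scaling run, but its Day 7 value of 0.12 became -0.09 with total counts, -0.32 with loess, and -0.01 without Day 0 replicate 1.

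Of 11 other genes of branched-chain amino acid synthesis, its regulation, and uptake, 6 had an assigned peak: ILV6, OAC1, GDH1, BAP2, TAT1, and AGP1. The GDH1 peak was found on Day 7 only, so that its choice fixed its height on that day, and it is given without a test. Of the other 5, 2 fell from Day 3 to Day 7, 2 fell from Day 7 to Day 10, 0 were called from Day 10 to Day 28, and 1 fell from Day 3 to Day 28, where 32.1%, 70.2%, 0.0%, and 31.9% of all peaks were called. Genes without an assigned peak lie in peaks of neighbours. That over ILV1 rose from Day 3 to Day 7 (0.27, edgeR adjusted p = 0.000478). The peak overlapping GCN4 was assigned to the tRNA gene tR(UCU)E, whose start it covers, and it does not reach the GCN4 start. Its counts are thus not those of the GCN4 promoter. It fell by 0.46 from Day 3 to Day 7 (edgeR adjusted p = 7.0e-08), then rose by 0.52 to Day 10 (edgeR adjusted p = 7.3e-06). The peak over BAP3 fell in both steps, by 0.26 (edgeR adjusted p = 0.0133) and 0.31 (edgeR adjusted p = 0.0124). The peaks of LEU5 and TMT1 were not called. For these peaks of neighbours only values under TMM are given. Under TMM the Day 7 to Day 10 changes of all peaks correlated with abundance (r = -0.75), and the BAP3 peak is abundant (9613 and 8354 normalized counts on Day 7). BAP2, the permease for branched-chain amino acids, held 7096 and 6464 normalized counts on Day 7 and 3900 and 3049 on Day 10, a fall of 0.93 (SE 0.10, edgeR adjusted p = 3.8e-06). GDH1, the glutamate dehydrogenase that supplies the amino group donor, has its peak inside the gene, which held 635 and 809 normalized counts at Day 3, 1051 and 1126 by Day 7, and 592 and 529 by Day 10. AGP1, a broad amino acid permease, fell by 0.37 from Day 3 to Day 7 (edgeR adjusted p = 0.000427), and TAT1, a permease for tyrosine and branched-chain amino acids, by 0.17 (edgeR adjusted p = 0.0236), a call that DESeq2 did not make (DESeq2 adjusted p = 0.0812). OAC1, the mitochondrial carrier that exports alpha-isopropylmalate, fell by 0.20 from Day 7 to Day 10 (edgeR adjusted p = 0.00839), but was at 0.12 with total counts. It was not called with loess either, whereas BAP2 was lower on Day 10 under every scaling run. ILV6, the regulatory subunit of acetolactate synthase, lies on chromosome III as LEU2 does and had values of 0.07 to 0.19 against Day 0. It was called in none of these comparisons under TMM or by DESeq2, but was higher on Day 10 than on Day 7 with loess (0.80, edgeR adjusted p = 0.000161) and total counts (0.44, edgeR adjusted p = 3.0e-06), and on Day 28 than on Day 3 with loess (0.53, edgeR adjusted p = 0.0109) and total counts (0.32, edgeR adjusted p = 0.00865).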

How the data were processed

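The authors trimmed reads with Trim Galore 0.5.0, mapped them with Bowtie2 2.2.9 to R64, called peaks per day with MACS2 2.1.1, merged overlapping peaks with bedtools 2.30.0, annotated them with HOMER, and deposited raw counts per merged peak from featureCounts 1.6.3. The deposited normalized counts are a signal that equals these counts divided by 1 size factor per library, with DESeq2 1.30.1 named in the submitters' processing notes. Whether duplicate or multiply mapped reads were removed is not given in the sources used here.

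Raw counts were tested with edgeR 4.0.16 in R 4.3.3 (TMM, filterByExpr, which removed no peak, quasi-likelihood test, Benjamini-Hochberg adjustment at 0.05), fitting the 4 libraries of each pair of days, or 8 for the F test. Simulated data with 200 of 3515 peaks changed by 0.5 (log2) gave 196 recovered and 1 false call for Day 3 vs Day 7, 196 and 11 for Day 7 vs Day 10, 156 and 6 for Day 10 vs Day 28, 157 and 4 for Day 3 vs Day 28, and 188 and 12 for the F test. The simulation left all other peaks unchanged and held no shift between days with peak abundance. The real Day 7 vs Day 10 data had such a shift (r = -0.75) and 70.2% of peaks called. The simulated counts are therefore not error rates of the real tests. Alternatives were DESeq2 1.42.0, other scalings (total counts, DESeq2 size factors, loess with span 0.3), filters, thresholds, 1 fit of all 10 libraries, a replicate block, and each library left out. Members and lists were chosen with earlier results of these data known. All members, the 4 assigned pathway peaks with the largest tested change, the mutant loci, the nearest neighbours, and the 5 peaks most correlated with LEU2 are named. OAC1, ILV6, and the pathway genes without an assigned peak were named after their values were seen. Sequences and gene positions come from RefSeq's R64, read with Python 3.11.15, and 1 peak name cut short in the count tables was matched by its start. Total-count scaling moved the median of all peaks to 0.36 for Day 7 vs Day 10, 0.25 for Day 3 vs Day 28, 0.11 for Day 0 vs Day 10, -0.21 for Day 0 vs Day 3, and -0.24 for Day 0 vs Day 7 (log2).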

Additional observations from a re-analysis of the deposited data

How the results depend on the processing

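The number of members called for Day 3 vs Day 7 was 2. It became 1 with DESeq2 or an adjusted p under 0.01, 0 in 1 fit of all 10 libraries or with a minimum change of 0.5 (log2), 3 with total counts or loess, and 0 to 2 when 1 library was left out. For Day 7 vs Day 10 it was 3, became 1 with the minimum of 0.5, 4 with total counts or loess, and 1 to 4 with 1 library left out. For Day 3 vs Day 28 it was 0, became 2 with DESeq2, 3 with total counts, 2 in 1 fit of all 10 libraries, and 0 to 2 with 1 library left out. For Day 10 vs Day 28 it was 0 under every alternative run. The F test called 4, 3 with total counts, and 2 to 4 with 1 library left out. The cause of these changes was not tested. With the replicate block, 2 members were called for Day 3 vs Day 28 (LEU2 at -0.38 and ILV5 at -0.34) and 0 for Day 10 vs Day 28. The primed and unprimed titles behind this pairing give only 2 pairs, whose deviations correlated at -0.01 (Day 3 and Day 28) and -0.67 (Day 10 and Day 28). The crossed pairing, added after seeing the data, called 533 of 3515 peaks and 0 members for Day 10 vs Day 28, against 0 peaks without it.

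LEU2 against Day 0 was 1.78, 1.57, and 1.64 for Days 3, 7, and 10 with total counts, and 1.65, 1.44, and 1.79 with loess. For Day 0 vs Day 3 it was 1.90 to 2.05 with 1 library left out. Signs also changed against Day 0, with no test: ILV5 on Day 3 was -0.34 with loess and -0.15 with total counts, ILV5 on Day 7 was -0.32 and -0.089, LEU3 on Day 3 was -0.12 with total counts, and LEU9 was 0.020 (Day 3) and 0.023 (Day 7) with loess and 0.072 (Day 10) with total counts. Without Day 0 replicate 1, ILV5 was -0.086 (Day 3) and -0.0056 (Day 7). Among the later days these signs reversed. LEU2 for Day 7 vs Day 10 was 0.074 with total counts and 0.62 with loess. LEU2 for Day 10 vs Day 28 was -0.018 with total counts, -0.20 with loess, and -0.064 to 0.16 with 1 library left out (below 0 without Day 10 replicate 2 or Day 28 replicate 2). LEU2 for Day 3 vs Day 28 was 0.19 with loess. Loess gave ILV5 0.20 for Day 7 vs Day 10, -0.092 for Day 10 vs Day 28, and 0.12 for Day 3 vs Day 28. ILV5 for Day 10 vs Day 28 was -0.012 to 0.22 with 1 library left out, the lowest without Day 10 replicate 2. LEU9 for Day 3 vs Day 7 was -0.016 with total counts, -0.0021 with loess, -0.0069 with a mean count of at least 500, -0.0025 in 1 fit, and -0.026 to 0.035 with 1 library left out. LEU9 for Day 7 vs Day 10 was 0.30 with total counts and -0.056 to 0.016 with 1 library left out. The lowest member count was 807, in LEU9, and 2 libraries a day leave little to estimate the spread from.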
